A study of Callithrix jacchus with 54 samples.

Results

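The inhibitor of DNA binding genes ID1, ID3 and ID4, the homeobox genes MSX1, MSX2, DLX3 and DLX5 and the inhibitory SMAD genes SMAD6 and SMAD7 were followed while embryonic stem cells of the common marmoset (cjESCs) were turned into primordial germ cell-like cells (PGCLCs). The genes were chosen by name, as known targets of bone morphogenetic protein (BMP) signaling and with earlier results of these data known, and the rule itself used no measured value. Of the 10 genes listed, 9 were analysed among the 14812 genes of the table, and ID2 was not analysed here. Their gene identifiers are 100412122 (ID1), 100391237 (ID3), 103792242 (ID4), 100412220 (MSX1), 100387689 (MSX2), 100387476 (DLX3), 100399579 (DLX5), 100389459 (SMAD6) and 100405407 (SMAD7). All 9 passed the filter on low values that left 11197 genes for testing.

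BMP ligands bind pairs of serine/threonine kinase receptors, which phosphorylate SMAD1, SMAD5 and SMAD9. These join SMAD4 and activate genes directly, the ID genes, MSX genes and SMAD6 among the best known. ID proteins lack a DNA-binding region and hold E proteins and other helix-loop-helix factors away from DNA, MSX and DLX proteins are homeodomain transcription factors, and SMAD6 and SMAD7 feed back to shut the pathway down. BMP4 is the cytokine from which mammalian primordial germ cells are induced in embryos and in culture.

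The poly(A) RNA of 54 libraries was sequenced, as biological duplicates of 27 conditions. All cells came from the female line CMES40 and carried the reporters BLIMP1-tdTomato and NANOS3-eGFP. Cells labelled TG+ also carried the inducible transgenes rtTA, tetO-BLIMP1, SOX17-GR and DD-TFAP2C (the digit of the last name runs on from label to label and was read as 2). They were grown in DK20FA and induced for 12, 24, 48 or 96 h in one of 3 media. BLSE held BMP4, LIF, SCF and EGF without SOX17 induction, SOX17 + BLSE added dexamethasone, which activates the SOX17-GR fusion, and SOX17 + LSE had the activated SOX17 but no BMP4. Cells labelled wild type had the reporters but no transgenes. They were grown in PESFA, treated for 24 h with IM12 and activin A (the pre-treated cells), and moved to BLSE + IWR1, where IWR1 inhibits WNT signaling, with or without BMS493 (BMS), an inverse agonist of retinoic acid receptors. Every induction medium also held a ROCK inhibitor. BLSE + IWR1 cells were followed to day 6, and day-6 PGCLCs were aggregated with somatic cells of mouse embryonic ovaries (xenogeneic reconstituted ovaries, xrOvaries) and taken at days 20, 40 and 70. The lines were each expanded from a picked colony, so the duplicates do not sample different clones.

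The 96 h cells, the day-6 cells and the xrOvary cells were sorted for BLIMP1-tdTomato, except those in BLSE at 96 h, which like all cells at 12 to 48 h were unsorted. The cjESCs and pre-treated cells were sorted for TRA-1-60. A step from 48 h to 96 h is therefore also a step from unsorted to sorted cells in every medium except BLSE, and the time and the sort cannot be told apart there. In these bulk libraries a smaller share of expressing cells and less RNA per cell cannot be told apart either.

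Levels are given as TPM, a transcript abundance scaled for gene length and library size, for replicate 1 and then replicate 2. Differences are log2 fold changes of TPM + 1, tested with limma across all 11197 genes, and a gene was called where the adjusted p was below 0.01. Beside each count of members stands the share of all genes tested that were called, counted in the same direction where the called members all moved one way. Since 2 against 2 libraries cannot give an exact permutation p under 0.33, the test rests on the spread pooled over the 27 conditions. Summed TPM per library ran from 790300 to 839203, 10146 to 12688 genes were above 0, and the duplicates correlated with r of 0.977 to 0.994 across genes. The 4 pluripotency markers summed to 3712 to 4218 TPM in the DK20FA cjESCs, and the 4 PGC markers (SOX17, PRDM1, TFAP2C and NANOS3) to 1963 to 2132 TPM at 96 h of SOX17 + BLSE against 219 to 229.9 TPM in the cjESCs, where reads of the transgenes may be included.

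Addition of BMP4 to cells with active SOX17 raised most of these genes within 12 h. At that time 31 of all genes tested were called (0.277%), all of them higher with BMP4, and 7 of the 9 targets were among them. At 24 h all 9 were higher, against 1.56% of all genes. At 48 h 8 of 9 were higher against 4.61%, and at 96 h 3 of 9 against 2.55%. The median log2 difference of the 9 genes was 2.08, 1.99, 1.46 and 0.44 at the 4 times, and that of all genes tested lay between −0.036 and 0.0051. With limma fitted to the 4 libraries of each time alone, 0 of 9 were called at any time, and 9, 9, 9 and 5 of 9 had an unadjusted p under 0.05. The calls therefore rest on the spread pooled over all conditions. Calls of the 9 genes that were lost without 1 library are pointed out with their log2 value or only within a count.

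**Figure D1:**
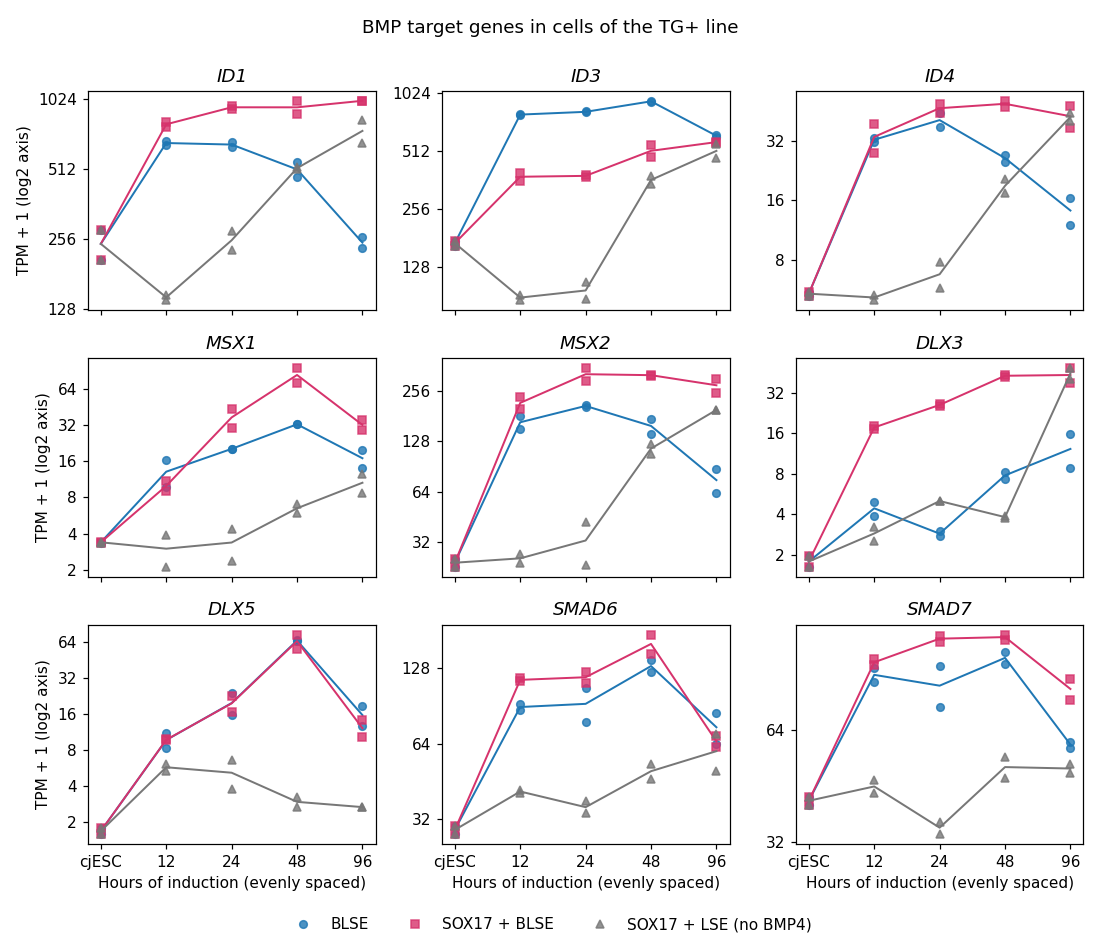
TPM + 1 on a log2 axis (1 panel per gene, with its own scale) against hours of induction, evenly spaced, in the TG+ line. Points are single libraries and lines join the means of 2 libraries. The grey SOX17 + LSE points lie below the pink SOX17 + BLSE points for all 9 genes at 12 and 24 h, and meet or overlap them at 96 h for ID4, DLX3 and SMAD6.

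ID1 was the most abundant of the 9 genes in SOX17 + BLSE. It stood at 818 and 777 TPM at 12 h, against 147 and 139 TPM without BMP4, a log2 difference of 2.47 ± 0.18 (SE, n = 2 per group, adjusted p = 6.55e-12). Without BMP4 it then read 276 and 229 TPM at 24 h, 512 and 521 TPM at 48 h, and 662 and 832 TPM at 96 h. With BMP4 it lay at 958 and 929 TPM at 24 h, 1004 and 882 TPM at 48 h, and 1007 and 1006 TPM at 96 h. The libraries with BMP4 were above those without at each time, but the distance shrank to a log2 difference of 0.86 at 48 h (adjusted p = 0.00075) and 0.44 at 96 h (adjusted p = 0.11, not called). The 48 h call was lost without replicate 1 of SOX17 + BLSE (0.77) or of SOX17 + LSE (0.85).

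ID3 and ID4 followed the same outline at different levels. ID3 read 393 and 359 TPM with BMP4 and 85.0 and 90.6 TPM without it at 12 h, a log2 difference of 2.08 ± 0.17 (SE, n = 2 per group, adjusted p = 1.11e-10). At 24 h it read 384 and 376 against 105 and 86.0 TPM, and at 48 h 549 and 478 against 380.5 and 343 TPM. The ID3 libraries did not overlap at 48 h, yet the log2 difference of 0.50 was not called (adjusted p = 0.0485). At 96 h the ID3 values were 573 and 566 TPM with BMP4 and 472 and 554 TPM without it. ID4 read 38.0 and 26.9 TPM against 4.01 and 4.34 TPM at 12 h and 48.2 and 43.2 against 6.81 and 4.75 TPM at 24 h, log2 differences of 2.67 and 2.80 (adjusted p = 7.87e-11 and 2e-11). It was still higher with BMP4 at 48 h, at 49.9 and 46.4 against 19.5 and 16.4 TPM. By 96 h its groups overlapped, at 35.9 and 47.2 TPM with BMP4 and 39.1 and 43.2 TPM without.

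The MSX genes differed from each other in timing. MSX2, a homeobox gene widely used as a readout of BMP signaling, was at 233 and 197 TPM with BMP4 and 26.0 and 23.1 TPM without it at 12 h, which at 3.08 ± 0.22 (SE, n = 2 per group, adjusted p = 6.55e-12) was the highest log2 difference of the 9 genes at that time. At 24 h the values were 349.9 and 289.6 against 40.9 and 22.5 TPM, and at 48 h 313 and 318 against 122 and 107 TPM. All MSX2 libraries with BMP4 stayed above those without, at 96 h too (301 and 248 against 196 and 195 TPM), where the difference of 0.48 was not called (adjusted p = 0.166). MSX1 was lower and later. It read 9.9 and 8.07 TPM with BMP4 and 1.1 and 2.89 TPM without it at 12 h (log2 difference 1.80, adjusted p = 0.0221, not called), then 43.0 and 29.3 against 3.39 and 1.35 TPM at 24 h and 95.5 and 70.2 against 6.08 and 4.92 TPM at 48 h. The 48 h difference of 3.68 ± 0.40 (SE, n = 2 per group, adjusted p = 1.69e-08) was the largest for MSX1, and at 96 h, with 34.3 and 28.1 against 7.66 and 11.6 TPM, it was 1.62 (adjusted p = 0.00478).

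The DLX genes, homeobox genes with roles in placental, skeletal and craniofacial development, parted over time. DLX3 was at 16.3 and 17.1 TPM with BMP4 and 1.54 and 2.23 TPM without it at 12 h (log2 difference 2.63, adjusted p = 0.000119), and at 42.7 and 40.9 against 2.87 and 2.76 TPM at 48 h (3.49, adjusted p = 5.03e-08). The 12 h call of DLX3 was lost without replicate 1 of SOX17 + LSE (2.45, adjusted p = 0.0126). At 96 h its groups overlapped, at 48.1 and 36.7 TPM with BMP4 and 39.2 and 48.2 TPM without. DLX5 at 12 h read 8.87 and 8.66 against 5.19 and 4.35 TPM (log2 difference 0.76, adjusted p = 0.611, not called). At 24 h it read 21.6 and 15.7 against 2.8 and 5.59 TPM, and at 48 h 72.7 and 55.2 against 2.23 and 1.71 TPM. The 48 h difference of 4.44 ± 0.31 (SE, n = 2 per group, adjusted p = 8.39e-13) was the highest of any of the 9 genes at any time, and it remained called at 96 h, when the values were 9.22 and 13.2 against 1.68 and 1.69 TPM (2.17, adjusted p = 5.55e-06). Its call at 24 h was lost without replicate 1 of SOX17 + LSE (1.56).

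The inhibitory SMADs moved within a narrower range. SMAD6, which acts mainly against BMP signaling, was at 112 and 116 TPM with BMP4 and 40.9 and 39.4 TPM without it at 12 h, and at 174 and 145 against 52.1 and 45.1 TPM at 48 h. These log2 differences were 1.48 and 1.69 (adjusted p = 2.31e-05 and 1.76e-07). At 96 h SMAD6 was at 67.6 and 61.0 TPM with BMP4 and 48.5 and 68.9 TPM without, and the groups overlapped. SMAD7, which inhibits both the BMP and the TGF-beta/activin branches, was at 94.4 and 97.9 against 42.2 and 45.9 TPM at 12 h (1.11, adjusted p = 9.55e-05) and at 86.6 and 76.1 against 48.0 and 50.7 TPM at 96 h (0.71, adjusted p = 0.00322). The calls of MSX1 and SMAD7 at 96 h were each lost when any 1 of the 4 libraries of that comparison was left out, at values of 1.35 to 1.89 for MSX1 and 0.62 to 0.80 for SMAD7, which left 1 call, DLX5, in every case.

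**Figure D2:**
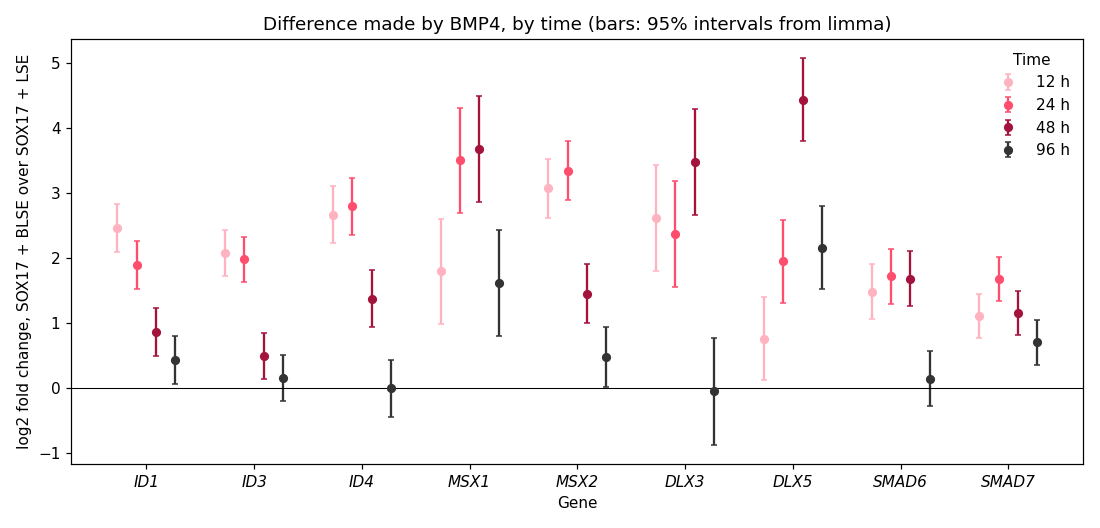
Log2 fold change of TPM + 1 between SOX17 + BLSE and SOX17 + LSE for each gene at 12, 24, 48 and 96 h. Points are differences of the means of 2 and 2 libraries and bars are 95% intervals from limma. The values of ID1, ID3, ID4 and MSX2 are lower at 48 and 96 h than at 24 h, whereas DLX5 peaks at 48 h with a value of 4.44.

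The size of the BMP4 difference was compared between times by an interaction test, with the 12 h difference common to each comparison. Between 12 and 24 h none of the 9 genes was called by limma, 4 of 9 had an unadjusted p under 0.05, and 0.00893% of all genes were called. Between 12 and 48 h 4 of 9 genes were called against 1.26% of all genes: the difference fell for ID1 (−1.60), ID3 (−1.58) and MSX2 (−1.62), and grew for DLX5 (3.68). The MSX2 call was lost without replicate 1 of SOX17 + BLSE at 12 h (−1.5) or 48 h (−1.61), replicate 2 of SOX17 + LSE at 12 h (−1.54) or replicate 1 of SOX17 + LSE at 48 h (−1.52). Between 12 and 96 h 6 of 9 genes were called against 1.51%, all as smaller differences, and these were ID1, ID3, ID4, MSX2, DLX3 and SMAD6. DLX3 was lost without either 12 h library of SOX17 + BLSE, replicate 2 of SOX17 + BLSE at 96 h, or replicate 1 at 12 h or 2 at 96 h of SOX17 + LSE (−2.71 to −2.48), and SMAD6 without any library except replicate 1 of SOX17 + LSE at 96 h (−1.41 to −1.09). For MSX1 the change between 12 and 96 h was −0.18, with a 95% interval of −1.33 to 0.97, and for SMAD7 it was −0.40, with an interval of −0.88 to 0.079. Every 96 h library in these tests was sorted and every 12 h library was not.

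Levels in the medium without added BMP4 were followed next. For SMAD6 the mean log2 level with BMP4 went from 6.85 at 12 h to 6.03 at 96 h and without BMP4 from 5.36 to 5.88. Compared with the DK20FA cjESCs, which served as the control of all the TG+ courses, SOX17 + LSE had 3 calls of 9 at 12 h against 8.35% of all genes, and 2 of these were lower. ID1 fell from 279 and 208 TPM in cjESCs to 147 and 139 TPM (log2 change −0.75, adjusted p = 0.00368) and ID3 from 174 and 164 to 85.0 and 90.6 TPM (−0.94, adjusted p = 0.000179), without overlap of the libraries. The ID1 call was lost without replicate 1 of the cjESCs (−0.54) or either SOX17 + LSE library (−0.79 and −0.71). DLX5 was the 1 higher, from 0.6 and 0.79 to 5.19 and 4.35 TPM (1.77, adjusted p = 0.000116). At 24 h 3 of 9 were called against 11.2%, with DLX3 (1.5) and DLX5 (1.56) higher and ID3 (−0.82) lower. These 3 calls fell to 1 without replicate 1 of the cjESCs and to 0 without replicate 2 of SOX17 + LSE (DLX3 1.5, DLX5 1.17 and ID3 −0.68), and DLX3 was lost without any of the 4 libraries (1.37 to 1.63). At 48 h 5 of 9 were called against 8.39% and at 96 h 7 of 9 against 21.3%, all higher than in cjESCs. SMAD6 was among the 5 at 48 h but was lost without any of the 4 libraries (0.67 to 0.88), and at 96 h MSX1 (1.36) and SMAD6 (0.78) were lost without replicate 2 of SOX17 + LSE.

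From 12 to 48 h without BMP4, 4 of the 9 genes rose (and 2.5% of all genes): ID1 by 1.84, ID3 by 2.03, ID4 by 1.87 and MSX2 by 2.17 on the log2 scale. From 48 to 96 h, 3 of 9 rose against 11.4%: ID4 by 1.16, MSX2 by 0.77 and DLX3 by 3.54. The MSX2 call of that step was lost without any of its 4 libraries (0.67 to 0.87). DLX3 had stayed between 1.54 and 4.03 TPM in this medium to 48 h and then reached 39.2 and 48.2 TPM. DLX5 went the other way in value, from 5.19 and 4.35 TPM at 12 h to 1.68 and 1.69 TPM at 96 h, where it was not called against cjESCs (adjusted p = 0.0835).

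The 6 BMP ligand genes of the pathway list in the table (BMP2, BMP4, BMP5, BMP6, BMP7 and GDF6) were measured in the same libraries, and were singled out after their values were seen. Their summed level in SOX17 + LSE was 213.8 and 227.5 TPM at 12 h, 324.1 and 274.4 TPM at 24 h, 383 and 365.4 TPM at 48 h, and 199.4 and 237.8 TPM at 96 h. In SOX17 + BLSE it lay between 142.2 and 203 TPM over all 8 libraries. The transcript of BMP4 itself read 85.2 and 83.0 TPM with added BMP4 and 191 and 186 TPM without it at 48 h. The part of these transcripts in the rise of the targets without added BMP4 was not tested.

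In BLSE, where BMP4 was present and SOX17 was not activated, 8, 8, 9 and 7 of the 9 genes were called above the cjESCs at 12, 24, 48 and 96 h, against 4.23%, 5.47%, 9.75% and 12.4% of all genes. ID3 was the most abundant here, at 789.8 and 794 TPM at 12 h, 935 and 922 TPM at 48 h and 609 and 619.9 TPM at 96 h. DLX5 rose the most from cjESCs, reaching 64.8 and 64.5 TPM at 48 h from 0.6 and 0.79 TPM, a log2 change of 5.28 ± 0.31 (SE, n = 2 per group, adjusted p = 1.05e-15). DLX3 was the exception early on, at 3.98 and 2.89 TPM at 12 h and 1.74 and 2.01 TPM at 24 h, neither called (adjusted p = 0.0245 and 0.248). MSX1 at 12 h was lost without replicate 1 of the cjESCs (1.92) or of BLSE (1.54).

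The response in BLSE had receded in part by 96 h, while DLX3 went from 7.27 and 6.31 TPM at 48 h to 7.82 and 14.7 TPM (not called). Between 12 and 48 h only DLX5 was called (2.77, as were 2.14% of all genes, higher). Between 48 and 96 h, when both times were unsorted, 6 of 9 fell against 5.88% of all genes: ID1, ID4, MSX2, DLX5, SMAD6 and SMAD7. ID4 (−0.955 to −0.67) and SMAD6 (−0.90 to −0.62) were lost without either 48 h library or without replicate 1 at 96 h. MSX2 was lost without replicate 1 at 48 h (−0.93) or at 96 h (−0.85). SMAD7 was lost without replicate 2 at 48 h (−0.72) or replicate 1 at 96 h (−0.746). ID1 went from 548 and 472 to 234 and 260 TPM (log2 change −1.04, adjusted p = 5.23e-05), which overlapped the 279 and 208 TPM of the cjESCs. DLX5 went from 64.8 and 64.5 to 11.6 and 17.8 TPM (−2.09, adjusted p = 5.12e-06). The 3 stromal markers (DCN, COL1A1 and COL3A1), all above 0 in BLSE at 48 and 96 h, summed to 1074 to 1723 TPM in BLSE at 96 h, 258 to 269.8 TPM at 48 h and 16.0 to 20.2 TPM in SOX17 + BLSE at 96 h, where COL3A1 was listed at 0 in both libraries. DCN made up most of it in BLSE, at 229 and 210 TPM at 48 h and 1703 and 1054 TPM at 96 h. COL1A1 went the other way, from 39.8 and 44.6 to 9.34 and 10.4 TPM. COL3A1 went from 1.34 and 3.14 to 10.7 and 9.92 TPM. The part of other cell types in the fall of the targets was not tested.

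In SOX17 + BLSE all 9 genes were called above cjESCs at all 4 times, against 5.89%, 10.1%, 15.8% and 25.6% of all genes. Between 12 and 48 h MSX1 (3.06) and DLX5 (2.72) rose further, 2 of 9 against 6.56%. Between 48 and 96 h MSX1 (−1.37), DLX5 (−2.42) and SMAD6 (−1.29) fell, 3 of 9 against 11.8%. MSX1 was lost without any of the 4 libraries of that step (−1.59 to −1.15), and its 12 h call against cjESCs without any of its 4 (1.42 to 1.69). The ID genes, MSX2 and DLX3 were not called between 48 and 96 h, with log2 changes between −0.22 (ID4) and 0.15 (ID3). The 96 h cells were sorted and the 48 h cells were not. Mesoderm-like markers (HAND1, LEF1, SNAI2 and VIM) summed to 1293 to 1430 TPM at 48 h and 149 to 172.3 TPM at 96 h. Amnion-like markers (GATA2, GATA3 and TFAP2A) summed to 608.8 to 613.9 and 343.2 to 412 TPM, with TFAP2A overlapping. Their part in the fall of MSX1, DLX5 and SMAD6 was not tested.

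The effect of SOX17 in the presence of BMP4 was read from SOX17 + BLSE against BLSE. It shares the SOX17 + BLSE libraries with the BMP4 comparison. Dexamethasone was added in SOX17 + BLSE and not in BLSE, so the activated SOX17 and dexamethasone itself cannot be told apart here. At 12 and 24 h 2 of 9 genes were called, DLX3 higher and ID3 lower, against 2.4% and 7.56% of all genes. ID3 was at 393 and 359 TPM with SOX17 and 789.8 and 794 TPM without it at 12 h, 384 and 376 and 815 and 822 TPM at 24 h, and 549 and 478 and 935 and 922 TPM at 48 h, lower with SOX17 in every library. Its log2 differences were −1.07, −1.10 and −0.86 (adjusted p = 7.48e-05, 1.75e-05 and 0.000232). DLX3 was at 24.5 and 25.5 TPM with SOX17 and 1.74 and 2.01 TPM without it at 24 h (log2 difference 3.18, adjusted p = 4.82e-07), and was called higher at all 4 times. Its 12 h call was lost without replicate 2 of BLSE (1.83) or either SOX17 + BLSE library (2.04 and 1.97), and its 96 h call without replicate 1 of BLSE (1.46).

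At 48 h 5 of 9 genes were called against 16.7% of all genes, with ID1, ID4, MSX2 and DLX3 higher and ID3 lower. This count was 2 without replicate 2 of BLSE, 3 without replicate 1 of SOX17 + BLSE and 2 without its replicate 2, with ID1 lost at 0.78 and 0.79, ID4 at 0.85 to 0.96, MSX2 at 0.86 and 1, and ID3 at −0.76. At 96 h 4 of 9 were called against 29.3%, all higher. ID1 then stood at 1007 and 1006 TPM with SOX17 and 234 and 260 TPM without it, a log2 difference of 2.03 ± 0.18 (SE, n = 2 per group, adjusted p = 6.87e-12). ID4 stood at 35.9 and 47.2 against 11.1 and 15.4 TPM and MSX2 at 301 and 248 against 61.8 and 86.0 TPM, without overlap. The median of all genes in that comparison was 0.24 and that of the 9 genes 0.94, and the SOX17 + BLSE libraries were sorted while the BLSE libraries were not. DLX5 was not called at any time. Its levels in the 2 media were alike at 48 h, 72.7 and 55.2 and 64.8 and 64.5 TPM, with a difference of −0.03 and a 95% interval of −0.67 to 0.61.

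The cjESCs themselves were compared first between cultures. Against DK20FA, the PESFA cjESCs had 2 of 9 genes called, both lower, as were 8.73% of all genes: ID1 at 149.6 and 114 TPM (−0.88, adjusted p = 0.000326) and MSX2 at 9.14 and 4.83 TPM against 21.6 and 24.5 TPM (−1.64, adjusted p = 6.17e-07). The ID1 call was lost without replicate 1 of the DK20FA cjESCs (−0.67) or replicate 2 of the PESFA cjESCs (−0.69). The cultures also differ in their transgenes. Pre-treatment with IM12 and activin A gave 0 calls of 9 by limma (0.304% of all genes, 3 of 9 with an unadjusted p under 0.05), with log2 changes from −0.65 (DLX3) to 0.58 (MSX2). The 3 stromal markers summed to 61.9 to 132 TPM in the DK20FA cjESCs, 1210 to 2211 TPM in the PESFA cjESCs and 1864 to 3574 TPM in the pre-treated cells, all 3 above 0 in each library. COL1A1 and COL3A1 carried the higher sums. DCN was at 16.4 and 35.3 TPM in the DK20FA cjESCs, 25.6 and 21.5 TPM in the PESFA cjESCs and 19.8 and 23.65 TPM in the pre-treated cells. The higher COL1A1 and COL3A1 thus came with the lower ID1 and MSX2, and their part in it was not tested.

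After the move to BLSE + IWR1, 8, 9, 9 and 8 of the 9 genes were called above the pre-treated cells at 12, 24, 48 and 96 h, against 1.97%, 4.14%, 9.98% and 22.7% of all genes. MSX2 rose the most at 12 h, from 13.1 and 8.39 to 253 and 167 TPM, a log2 change of 4.17 ± 0.22 (SE, n = 2 per group, adjusted p = 4.11e-16). ID4 went from 3.17 and 3.82 to 57.7 and 57.3 TPM (3.71, adjusted p = 2.74e-15) and ID1 from 168 and 111 to 1043 and 1009 TPM (2.90, adjusted p = 1.34e-14). No library of these 3 genes overlapped between the groups. MSX1, at 6.11 and 2.51 TPM against 1.32 and 1.86 TPM, was the 1 gene not called at 12 h. The 3 stromal markers summed to 1864 to 3574 TPM in the pre-treated cells and 97.1 to 143 TPM at 12 h. All 3 were above 0 in each library. COL1A1 went from 1385 and 2715 to 118.5 and 73.6 TPM, and DCN only from 19.8 and 23.65 to 17.5 and 17.85 TPM. The part of these markers in the rise was not tested. At 12 h DLX5 was lost without replicate 1 of the pre-treated cells (1.13) or replicate 2 of BLSE + IWR1 (1.45), and DLX3 without replicate 2 (1.78) or 1 (1.60) of the same groups. At 24 h MSX1 was lost without replicate 1 of either group (1.67 and 1.64). At 96 h DLX3 (1.56), SMAD6 (0.45) and SMAD7 (0.43) were lost without replicate 2 of BLSE + IWR1. SMAD6 (0.78) and SMAD7 (0.315) were lost without replicate 1 of the pre-treated cells.

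**Figure D3:**
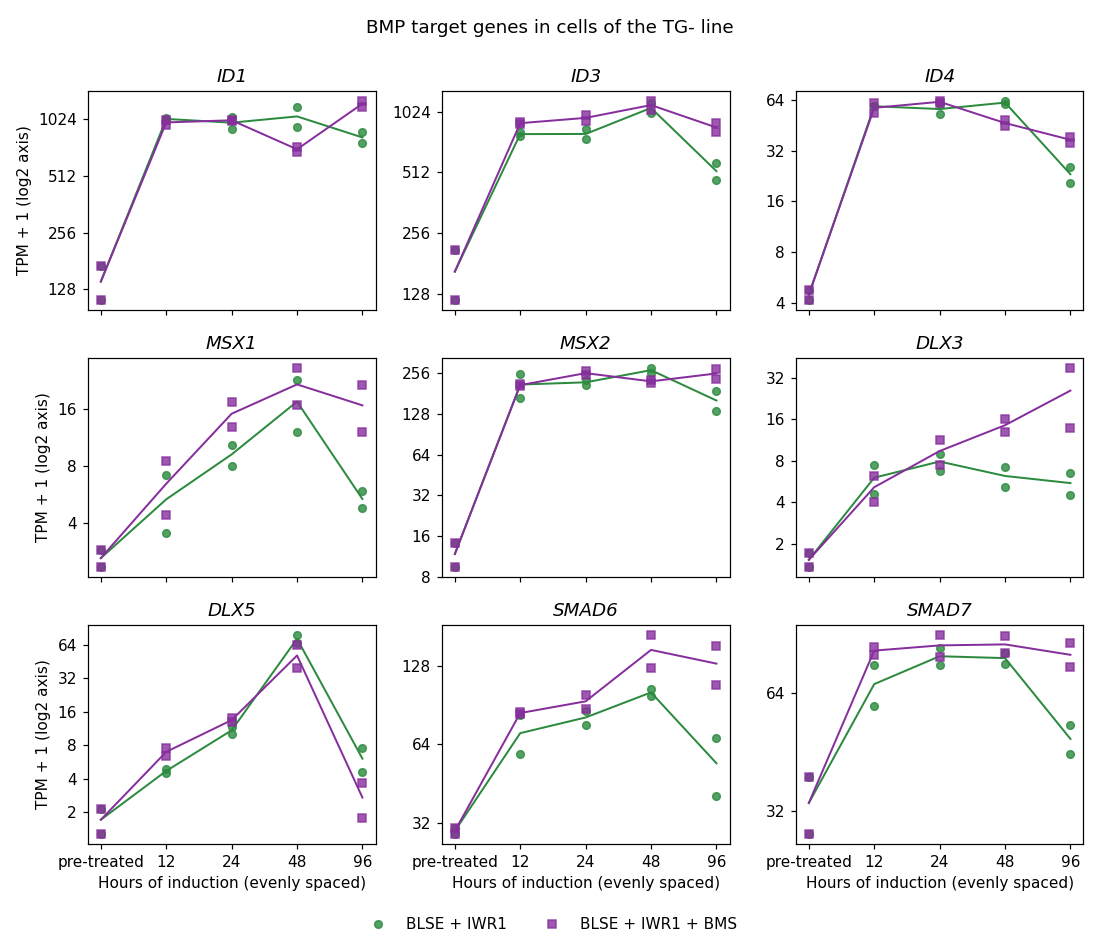
TPM + 1 on a log2 axis (1 panel per gene, with its own scale) in pre-treated cells and at 12, 24, 48 and 96 h, evenly spaced, in BLSE + IWR1 (green) and BLSE + IWR1 + BMS (purple). Points are single libraries and lines join the means of 2 libraries. DLX5 peaks at 48 h in both media. At 96 h the purple points stand above the green for every gene except DLX5, where they stand below.

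The courses of single genes parted after 12 h. DLX5 rose from 3.5 and 3.89 TPM at 12 h and 10.7 and 9.1 TPM at 24 h to 77.9 and 65.2 TPM at 48 h (3.94 from 12 h, adjusted p = 4.79e-11), and MSX1 rose as well (1.74, adjusted p = 0.00268), 2 of 9 against 4.02% of all genes. MSX1 was lost without replicate 2 at 12 h (1.23) or replicate 1 at 48 h (1.28). From 48 to 96 h 7 of 9 fell against 15.9%, and ID1 and DLX3 were not called. The 3 amnion-like markers (GATA2, GATA3 and TFAP2A) summed to 355 to 367 TPM at 48 h and 116 to 218 TPM at 96 h, and the 4 mesoderm-like markers (HAND1, LEF1, SNAI2 and VIM) to 1490 to 1514 TPM and 270.4 to 324 TPM. All 7 were above 0 in each library, and their part in the fall was not tested. The count was 5 without either 48 h library, 4 without replicate 1 at 96 h and 6 without replicate 2, the lost calls being of MSX1, MSX2, SMAD6 and SMAD7 (MSX2 −0.52 to −0.83). DLX5 dropped to 6.54 and 3.58 TPM (−3.62, adjusted p = 8.8e-12), ID4 from 58.9 and 62.0 to 19.6 and 24.7 TPM (−1.42) and ID3 from 1131 and 1003 to 469 and 566 TPM (−1.05). The DLX5 groups at 48 and 96 h were far apart, and every 96 h library here was sorted.

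BMS made no called difference to the 9 genes at 12, 24 or 48 h by limma, where 0, 10 and 541 of all genes were called (0%, 0.0893% and 4.83%) and 0, 0 and 3 of the 9 had an unadjusted p under 0.05. At 12 h ID1 read 1019 and 947 TPM with BMS and 1043 and 1009 TPM without it, a difference of −0.063 with a 95% interval of −0.43 to 0.31, and the MSX2 difference was 0.017, with an interval of −0.44 to 0.47. These libraries overlapped. At 96 h 2 of 9 were called against 0.438% of all genes: DLX3 at 36.8 and 12.8 TPM with BMS and 3.48 and 5.51 TPM without (2.08, adjusted p = 0.00235), and SMAD6 at 152 and 107 against 39.6 and 66.8 TPM (1.29, adjusted p = 0.000352). The duplicates of DLX3 with BMS lay far apart, but both were above those without. All 9 genes had an unadjusted p under 0.05 in limma at 96 h, with a median difference of 0.72. They did not all move 1 way: DLX5 was lower with BMS (−1.21), at 0.76 and 2.65 against 6.54 and 3.58 TPM. The 3 amnion-like markers, all above 0, summed to 386 to 520.5 TPM with BMS and 116 to 218 TPM without it at 96 h, and their part in these differences was not tested. Both calls were lost without replicate 1 of BLSE + IWR1 (DLX3 1.81, SMAD6 0.92) or replicate 1 with BMS (DLX3 1.35, SMAD6 1.04).

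With BMS, 4 of 9 genes rose between 12 and 48 h (MSX1, DLX3, DLX5 and SMAD6) against 5.04% of all genes. DLX3 was lost without any of the 4 libraries (1.21 to 1.84). SMAD6 was lost without any except replicate 1 at 48 h (0.58 to 0.798). MSX1 was lost without replicate 2 at 12 h (1.31) or at 48 h (1.46). Between 48 and 96 h 2 of 9 were called against 31.1%. ID1 rose from 686 and 729 to 1281 and 1191 TPM (0.80, adjusted p = 0.000442), and DLX5 fell from 38.2 and 62.3 to 0.76 and 2.65 TPM (−4.30, adjusted p = 9.28e-14).

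From 96 h to day 6 of BLSE + IWR1, 7 of the 9 genes were not called. SMAD6 rose from 39.6 and 66.8 to 104 and 106 TPM (1.01, adjusted p = 0.00183) and DLX5 fell from 6.54 and 3.58 to 0.63 and 0.64 TPM (−1.85, adjusted p = 0.000219), 2 of 9 against 2.75% of all genes. Both calls were lost without replicate 1 at 96 h (SMAD6 0.64, DLX5 −1.49), and that of SMAD6 without either day-6 library (1.03 and 0.99). ID1 stood at 955 and 1126 TPM on day 6.

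After transfer to xrOvaries the targets dropped. Between day 6 and day 20, 8 of 9 genes fell against 13.8% of all genes, and DLX5 was already near 0. ID1 went from 955 and 1126 to 285 and 169 TPM, a log2 change of −2.23 ± 0.18 (SE, n = 2 per group, adjusted p = 3.24e-12). MSX2 went from 205 and 268 to 51.8 and 62.3 TPM (−2.03, adjusted p = 5.63e-09), and SMAD7 from 66.7 and 80.7 to 26.1 and 16.8 TPM (−1.76, adjusted p = 1.96e-10). In all 3 genes both day-20 libraries were below both day-6 libraries.

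MSX1, DLX3 and ID4 reached low levels at day 20. MSX1 went from 5.07 and 9.28 TPM to 0.27 and 0 TPM, DLX3 from 10.3 and 16.6 to 2.72 and 0 TPM, and ID4 from 21.6 and 32.0 to 6.09 and 4.15 TPM. Both zeros are in replicate 2 of day 20, which had the fewest genes above 0 of the 54 libraries (10146, against 11441 in its duplicate) and the lowest correlation with its duplicate (r = 0.977). The 8 genes called at day 20 were also called when replicate 2 was left out. A value of 0 in this table is a listed 0, since read counts were not part of it. All these cells were sorted for BLIMP1-tdTomato, but the culture changed from the induction medium to the xrOvary together with the time. The authors list no BMP4, LIF, SCF, EGF or IWR1 for the xrOvary media, and retinoic acid was added at first. The end of added BMP4, the other changes of culture and the time cannot be told apart.

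**Figure D4:**
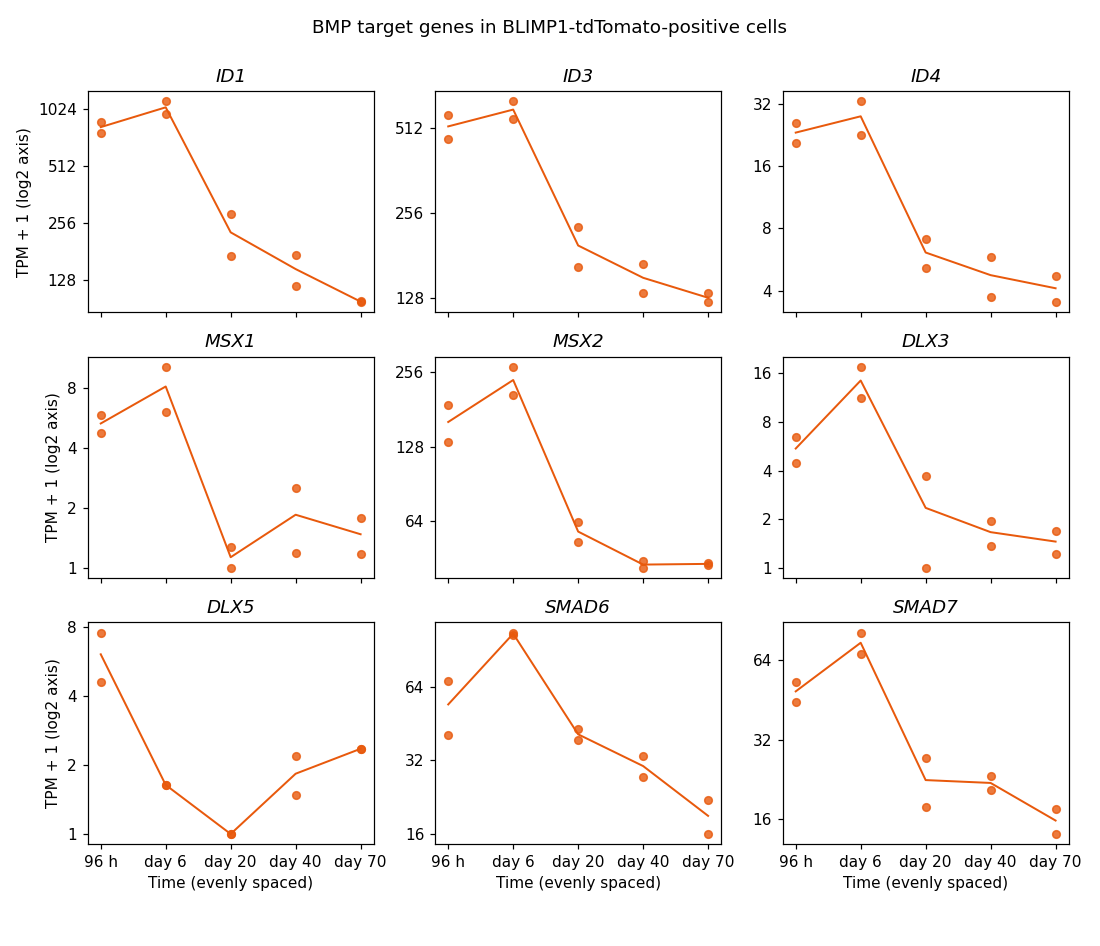
TPM + 1 on a log2 axis (1 panel per gene, with its own scale) in BLIMP1-tdTomato-positive cells at 96 h and day 6 of BLSE + IWR1 and at days 20, 40 and 70 in xrOvaries, evenly spaced. Points are single libraries and the line joins the means of 2 libraries. The step between day 6 and day 20 is the largest for all genes except DLX5, which is at 1.35 TPM or less from day 6.

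From day 20 to 40 and from day 40 to 70 limma called 0 of 9 genes, against 4.6% and 2.73% of all genes, with 4 and 3 of 9 at an unadjusted p under 0.05. ID1 went from 285 and 169 TPM through 172 and 118 TPM at day 40 to 96.4 and 98.1 TPM at day 70. SMAD6 read 37.7 and 42.1 TPM at day 20, 32.3 and 26.3 TPM at day 40, and 14.9 and 20.9 TPM at day 70. ID1, ID4, DLX3, SMAD6 and SMAD7 each had their lowest mean of the 27 conditions at day 70. In the same libraries the 3 late germ cell markers (DDX4, DAZL and MAEL) summed to 17.1 to 22.5 TPM at day 20 and 124 to 129 TPM at day 70. On day 6 they summed to 7.06 to 7.07 TPM. At day 20 nearly all of it was MAEL, with DDX4 at 0 in both libraries and DAZL at 0.39 and 0 TPM. The 3 amnion-like markers summed to 11.6 to 12.7 TPM at day 20 against 159.9 to 224 TPM on day 6. That fall was in GATA2 and GATA3, while TFAP2A went from 7.26 and 13.6 TPM on day 6 to 10.5 and 9.54 TPM at day 20.

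Across the 27 conditions the peaks fell in 7 conditions. ID1 was highest in BLSE + IWR1 + BMS at 96 h (mean 1236 TPM), ID3 in BLSE + IWR1 + BMS at 48 h (1103 TPM) and ID4 in BLSE + IWR1 + BMS at 24 h (61.1 TPM). MSX1, SMAD6 and SMAD7 peaked in SOX17 + BLSE at 48 h (82.9, 159.3 and 112.5 TPM), MSX2 in SOX17 + BLSE at 24 h (319.8 TPM), DLX3 in SOX17 + LSE at 96 h (43.7 TPM) and DLX5 in BLSE + IWR1 at 48 h (71.5 TPM). The order between neighbours was loose: of 26 neighbouring pairs of conditions, only 3 (MSX1) to 8 (DLX5) had libraries that did not overlap.

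**Figure D5:**
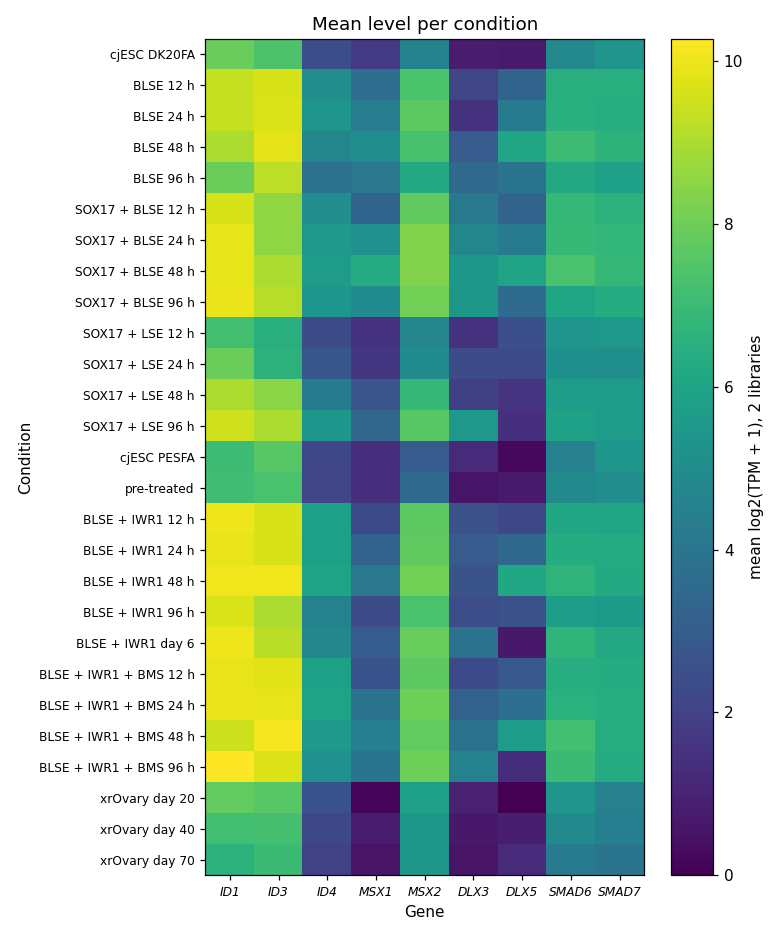
Mean log2(TPM + 1) of 2 libraries for each of the 27 conditions (rows) and 9 genes (columns), from 0 (dark) to about 10 (yellow). ID1, ID3 and MSX2 are bright in the media with BMP4 and, at 48 and 96 h, in SOX17 + LSE without it, and DLX5 is bright at 48 h of the media with BMP4 only.

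Over the 27 condition means, which share cultures and time points, the closest pair was ID1 and ID4 (Pearson r = 0.957), and the least alike was DLX3 and DLX5 (r = 0.475). Genes named only by a locus number were left out of the ranking of other genes. Outside the 9 genes, the remaining gene with the highest r was FADS6 for ID1 (0.907), BAMBI for ID3 (0.87), ID4 (0.891) and SMAD6 (0.891), TBX3 for MSX1 (0.887), SP6 for MSX2 (0.897), SLC30A2 for DLX3 (0.916), RBBP8NL for DLX5 (0.933) and GATA3 for SMAD7 (0.918). BAMBI, which encodes a pseudoreceptor that dampens BMP signaling, was among the 3 most alike genes of ID3, ID4, MSX1, SMAD6 and SMAD7.

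Of the 51 further genes of the BMP pathway list, 38 were tested. With BMP4 added to SOX17-active cells, 2 of the 38 were higher and 0 lower at 12 h: BAMBI, at 347 and 332 against 104 and 102 TPM (1.71, adjusted p = 6.58e-08), and TBX3, a T-box transcription factor, at 82.3 and 71.1 against 16.4 and 16.3 TPM (2.16, adjusted p = 7.42e-06). The groups did not overlap for either gene, and the share of all genes called was the 0.277% given above. No ligand, receptor or signal-transducing SMAD gene was called at 12 or 24 h. At 24 h 9 of 38 were higher and 0 lower, against 2.62% of all genes called in either direction.

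At 48 h 8 of 38 were higher and 3 lower, against 8.01% of all genes. Those that rose included DLX6 at 11.8 and 9.49 TPM with BMP4 and 0 and 0.16 TPM without it (3.43, adjusted p = 3.74e-10) and TFAP2A, a transcription factor of surface ectoderm and amnion, at 44.2 and 43.2 against 3.71 and 5.0 TPM (3.07, adjusted p = 4.83e-10). The 3 that fell were CER1, a secreted antagonist of nodal, BMP and WNT ligands, at 0.35 and 0 against 25.0 and 21.0 TPM (−4.36, adjusted p = 0.000931), and the ligand genes BMP7 (−1.25, adjusted p = 0.000221) and BMP4 (−1.16, adjusted p = 2.42e-05). At 96 h 2 of 38 were higher and 4 lower, against 7.11%.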

How the data were processed

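The authors prepared directional poly(A) libraries, mapped single-end reads to the cj1700_1.1 assembly with STAR, and estimated transcript abundance with RSEM (both named in the submitters' processing notes). The deposited values are TPM per gene, without read counts, so the sequencing depth is unknown and no interval for counting error is given. Each TPM was analysed on the log2 scale after adding a pseudocount of 1. Genes reaching a log2 value of 1.5 in at least 1 library were kept (11197 of 14812). A group-means model over all 54 libraries was fitted with limma 3.58.1 in R 4.3.3 with an intensity trend (27 residual degrees of freedom). Benjamini-Hochberg adjustment ran over all genes tested. The 9 members and the 47 comparisons were set by name, and the members and lists were chosen with earlier results of these data known. All members are named. The pathway list is given by counts, with the 3 called genes of greatest rise and fall at 12 and 48 h, and the 3 genes most like each member were taken by Pearson r over condition means. Genes named only by a locus number were left out of that choice. In simulated data limma called 81 of 100 genes changed 2-fold, 100 of 100 changed 8-fold and 2 of 10997 unchanged genes at 12 h of the BMP4 comparison. The changed genes were drawn only from those with a log2 value above 2 in every library. ID4, MSX1, DLX3 and DLX5 were below it in some libraries, so the counts of changed genes do not cover them. Alternatives were another pseudocount (0.1), no filter, median-ratio scaling, quantile normalization, no trend, the replicate number as a block, a fit of the compared libraries alone, and leaving out each library. No 2 libraries were identical. One result that the naming rule would give is not reported here.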

Additional observations from a re-analysis of the deposited data

Results flagged for a closer look

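The BMP4 difference (SOX17 + BLSE minus SOX17 + LSE) changed with time in 10 tests of the difference itself, which compared the later difference with that at 12 h by an interaction term in limma. All values are changes in log2 difference, and they share the 12 h libraries.

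At 48 h the BMP4 difference was smaller than at 12 h for ID1 (−1.60, adjusted p = 0.00014), ID3 (−1.58, adjusted p = 0.000105) and MSX2 (−1.62, adjusted p = 0.00191). It was larger for DLX5 (3.68, adjusted p = 2e-06). The MSX2 call was lost in some of the fits without 1 library, at values of −1.61 to −1.5.

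At 96 h it was smaller than at 12 h for ID1 (−2.03, adjusted p = 1.96e-06), ID3 (−1.93, adjusted p = 1.96e-06), ID4 (−2.67, adjusted p = 6.12e-07), MSX2 (−2.60, adjusted p = 1.26e-06), DLX3 (−2.67, adjusted p = 0.00301) and SMAD6 (−1.33, adjusted p = 0.00435). In most of the fits without 1 library the calls of DLX3 (−2.71 to −2.48) and SMAD6 (−1.41 to −1.09) were lost. The 96 h cells were sorted and the 12 h cells were not, and these cannot be told apart from time.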

How the results depend on the processing

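With limma fitted only to the libraries of each comparison, far fewer members were called: 0 in the BMP4 effect (27 in the full fit), 3 in its change over time (10), 7 in BLSE (32), 17 in SOX17 + BLSE (36), 4 in SOX17 + LSE (18), 3 in the SOX17 effect (13), 3 in BLSE + IWR1 (34), 0 with BMS (2), 0 from 12 to 48 h (13), 2 from 48 to 96 h (21), 0 in the late course (10), 0 between starting cells (2) and 0 of the pathway list (28). At 12, 24, 48 and 96 h the BMP4 effect had 0 calls each in that fit. Each 2 against 2 fit has few residual degrees of freedom by its construction, and 32, 19, 35, 36, 24, 22, 34, 17, 30, 28, 15, 4 and 61 of these tests had an unadjusted p under 0.05.

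Without 1 library at a time the counts were 25 to 27 in the BMP4 effect (6 to 7, 8 to 9, 7 to 8 and 1 to 1 at the 4 times), 7 to 10 in its change, 31 to 32 in BLSE, 35 to 36 in SOX17 + BLSE, 14 to 18 in SOX17 + LSE, 10 to 13 in the SOX17 effect, 30 to 34 in BLSE + IWR1, 0 to 3 with BMS, 10 to 13 from 12 to 48 h, 17 to 21 from 48 to 96 h, 8 to 12 in the late course, 1 to 2 between starting cells and 25 to 28 in the pathway list. A group left with 1 library is assumed to vary like the others. A pseudocount of 0.1 left 1 call with BMS.

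Among the member values named in the text, directions turned only where there was no call. The BMS difference of MSX2 at 12 h was −0.080 with median-ratio scaling, −0.024 with quantile normalization, and between −0.28 and 0.32 without 1 library (0.017 in the full fit), and that of ID1 was 0.014 with quantile normalization. The MSX1 change of the BMP4 effect to 96 h ran from −0.62 to 0.27 without 1 library, and the DLX5 SOX17 difference at 48 h from −0.23 to 0.17. Median-ratio scaling moved the median of all genes by over 0.1 in 6 of the 47 comparisons, most in SOX17 + BLSE against BLSE at 96 h (from 0.24 to 0.0023).

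The replicate numbers were not taken to pair the libraries, since the correlation of deviations exceeded 0.1 in 41 of 351 pairs of conditions (median 0.0095). It was higher in some pairs of the TG+ line, at 0.289, 0.181, 0.063 and 0.117 in the BMP4 comparison at 12, 24, 48 and 96 h and 0.207, 0.272, 0.020 and 0.036 in the SOX17 comparison. With the replicate block the BMP4 effect kept a count of 27, and none of the named member values changed its call. The block is a single term common to all conditions, and each condition holds both replicate numbers. It therefore could not change any log2 difference, and it does not test pairing within a comparison. The same holds for a crossed block in BLSE + IWR1 from 12 to 48 h, chosen after seeing the data. It gave 2 calls, as did the fit without it. Depth is unknown, so low values such as those of DLX5 and MSX1 in xrOvaries carry no floor.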

Other observations

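The values given here were chosen after the data were seen. In the calJac240_pri annotation DLX4 is the next protein-coding gene to DLX3, and DLX6 the next to DLX5. Over the 27 condition means DLX3 and DLX4 correlated with r = 0.713 and DLX5 and DLX6 with r = 0.914, as a description across conditions that share cultures. At 48 h DLX6 was at 11.8 and 9.49 TPM with BMP4 and 0 and 0.16 TPM without it in SOX17-active cells, and at 6.54 and 6.5 TPM in BLSE. At 96 h DLX4 was at 15.6 and 8.35 TPM with BMP4 and 19.9 and 15.1 TPM without it.

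BAMBI was at 251 and 275 TPM on day 6 and 61.4 and 46.5 TPM at day 20 in xrOvaries. The BMP4 transcript read 162 and 145 TPM on day 6 and 153 and 194 TPM at day 20.

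In BLSE the 6 ligand genes summed to 404.8 and 426.9 TPM at 12 h and 745.7 and 804.8 TPM at 96 h. Between these times ID1 went from 677 and 648 to 234 and 260 TPM, and ID3, ID4, MSX2, SMAD6 and SMAD7 also had lower means at 96 h. The means of DLX3 (3.44 to 11.2 TPM), DLX5 (8.73 to 14.7 TPM) and MSX1 (12.1 to 16.0 TPM) were higher at 96 h. The part of the ligand transcripts in these changes was not tested.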
